A study of Arabidopsis thaliana with 6 samples.

Results

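The mock-sprayed leaves of this series of 6 samples are 3 samples, taken by their labels, and the levels of 13286 genes were described within them. All 3 came from Arabidopsis thaliana plants of 3 to 4 weeks, sprayed with the wetting agent Silwet at 0.01% and harvested after 2 hours, and the labels call them biological replicates. The labels name no ecotype, genotype, light regime or time of day, nor how many plants made up a sample. The other 3 samples, sprayed with salicylic acid, do not enter any value below, and since no second group enters, no test was made.

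Most cells of a mature leaf are photosynthetic, and the leaf is known for very abundant transcripts of the photosynthetic apparatus. The nucleus encodes the light-harvesting antenna, the peripheral photosystem subunits and most Calvin cycle enzymes, whereas the small plastid genome encodes the reaction centre proteins, the large subunit of Rubisco and much of the plastid translation machinery. Genes for seed storage, pollen, root hairs and the meristem are known to be expressed mainly in other organs. Between these extremes lie genes that respond to cold, wounding, light or hormones, whose transcript levels can differ between leaves of untreated plants.

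Transcripts were measured on the Affymetrix ATH1 array, on which a set of short probes reports each transcript, and each gene is represented here by 1 probe set. A gene of a list is called measured where it is among the 13286 genes. The annotation used names no gene for 8730 probe sets, so other list members may have signals that could not be assigned. Levels are log2 signals after robust multi-array averaging (RMA), so that 1 unit is a 2-fold difference. A signal depends on the sequence of its probes as well as on the amount of transcript, so the order of genes by level is an order of signals and not of transcript abundance. RMA signals carry no detection call, and "near-silent" here means a low signal only. Where 3 values are given in a row, they are those of mock replicates 1, 2 and 3.

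The median signal of all probe sets was 7.492, 7.4975 and 7.512, and the Pearson correlation over these 22746 probe sets was 0.983 between replicates 1 and 2, 0.975 between 1 and 3, and 0.986 between 2 and 3. Replicate 1 stood apart in its organelle and control signals. The 25S ribosomal RNA control gave 8.23, 11.80 and 12.15, while the 6 probe sets for dap, a bacterial transcript used as a spike-in control, were 2.37 to 4.03 log2 units higher on replicate 1 than on the mean of the others. Of 6 differences between 3′ and 5′ control probe sets, 5 were highest on replicate 1, such as 1.75, 1.38 and 1.28 for ubiquitin, and an actin pair was highest on replicate 2 at 1.16, 1.34 and 0.84. The part of these array differences in the values below was not tested. The ranking of variable genes and the bright classes are also given without replicate 1. For many single genes the value of each array is printed, while for others only a mean is given. Medians of lists are not given by array.

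Gene levels ran from 3.11 to 14.10, with a median of 7.08 and an interquartile range from 5.29 to 8.75. The distribution had a broad shoulder between 4 and 7 and a peak between 8 and 9, the unit interval that held most genes (2178, 16.4%). A mean of at least 12 was reached by 104 genes (0.783%), and 73 of these reached 12 on all 3 arrays. A further 255 probe sets with no gene in the annotation and 16 with several genes also reached that mean. The accounts of bright genes below thus cover only a part of the bright signals. At the other end, 2448 genes (18.4%) were under 5 on all 3 arrays. Annotated pseudogenes lay low, with a median of 4.42 over 923 pseudogenes and 4.80 over 66 transcribed pseudogenes, against 7.38 over 12293 protein-coding genes.

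**Figure D1:**
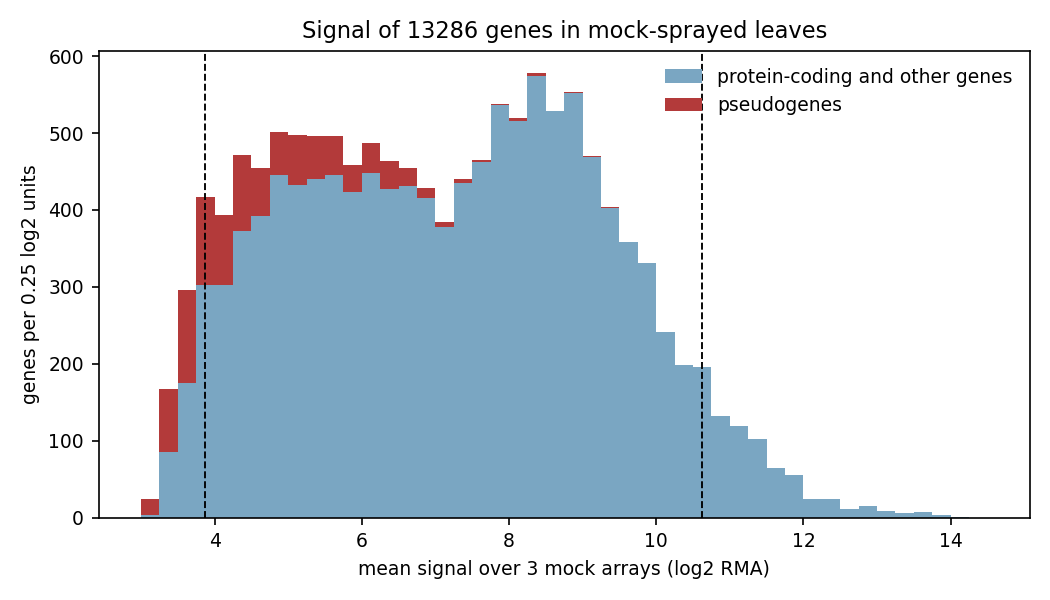
Number of genes per 0.25 log2 units (vertical axis) against the mean log2 RMA signal over the 3 mock arrays (horizontal axis), with pseudogenes stacked in red and dashed lines at the edges of the lowest and the highest 5% of genes. Pseudogenes sit almost wholly in the lower mode, and the highest 5% begins at 10.63.

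The brightest 5% comprised 664 genes with a mean of 10.63 or more. The last gene inside, AT1G44920, lay at 10.628 and the first outside, AT2G21185, at 10.627, so the edge is a rank and not a gap. None of the 664 was a pseudogene and 31 were plastid-encoded, and 501 (75.5%) were in the highest 5% on each of the 3 arrays taken alone. Their median gene length was 1904 bp, against 2105 bp over all genes, and 41.1% had more than 1 annotated transcript, against 37.9%. The values over all genes include pseudogenes (7.44%) and were not computed without them, so no difference is read from these figures.

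Of the 13286 genes, ECS1 (AT1G31580), which encodes a cell wall protein, had the highest signal, at 14.08, 14.15 and 14.07. These 3 values lay within 0.074 of each other. RCA, Rubisco activase, the chaperone that reopens inhibited Rubisco sites, followed at 13.86, 14.11 and 13.997. PRXR1, a class III peroxidase, gave 13.97, 13.94 and 13.61 and was lowest on replicate 3. GAMMA-VPE, a vacuolar processing protease, had the largest spread of the 25 brightest genes, at 13.43, 13.47 and 12.76. Its replicate 3 value lay apart from the other 2.

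Photosynthesis genes were frequent among the brightest 25. LHCB4.1 and LHCB4.2, which encode forms of the minor antenna protein CP29 of photosystem II, reached 13.88 ± 0.05 and 13.59 ± 0.02 (SD, n = 3). LHCB4.3, the third gene of the same small family, gave 11.54, 10.90 and 11.10, which placed it inside the brightest 5%. PSAE-1, a stromal subunit of photosystem I, gave 13.73, 13.68 and 13.68, and PSAN, a lumenal subunit, 13.32, 13.49 and 13.62. ATPC1, the gamma subunit of the chloroplast ATP synthase, gave 13.35, 13.50 and 13.53. The replicates of PSAE-1 lay closer together than those of PSAN or ATPC1.

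PSBY and PSBW, small subunits of photosystem II, had means of 13.52 and 13.33. PSB27, an assembly factor of photosystem II, gave 11.91, 12.35 and 12.62 and had the largest SD (0.35) of the 16 measured nuclear genes on the photosynthesis and photorespiration lists. AT4G01150, which the annotation also names as a thylakoid curvature protein, reached 13.52 ± 0.08 (SD, n = 3). AT1G74470, listed as a geranylgeranyl reductase, an enzyme of chlorophyll side-chain synthesis, closed the brightest 25 at 13.03 ± 0.14 (SD, n = 3).

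Enzymes of carbon fixation and photorespiration were bright and steady. PRK, phosphoribulokinase, which regenerates the carbon dioxide acceptor, gave 13.07, 13.06 and 12.95, and SBPASE, sedoheptulose bisphosphatase, gave 12.65, 12.75 and 12.55. Both stayed within 0.2 units over the arrays. HPR, hydroxypyruvate reductase of the peroxisome, gave 13.01, 13.03 and 12.67. Of the other genes on the photorespiration list, AT1G11860 and AT1G32470 reached 12.27 and 12.07, and AT1G80380 reached 11.20. Over the antenna, photosystem, carbon fixation and photorespiration lists, 16 of 93 members were measured, and the others had no probe set matched to them here. All 16 were in the brightest 5% and 14 were in the highest 1%, with levels of 11.18 to 13.99. Their SDs ran from 0.02 to 0.35 with a median of 0.10, against a median of 0.17 over all genes; 13 of the 16 lay below that median and none was in the most variable 5%.

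In the annotation 9 of the brightest 25 have their locus as symbol, among them AT2G25510 at 13.72, AT2G45180 at 13.60 and AT3G22240 at 13.42. GAPC2, cytosolic glyceraldehyde-3-phosphate dehydrogenase and a common reference gene, was also among the brightest 25, at 12.85, 13.18 and 13.12. The plastid genes atpE and atpB, which encode the epsilon and beta subunits of the ATP synthase, gave 13.45, 13.97 and 13.86, and 13.21, 13.89 and 13.86. Both were lowest on replicate 1. Over the 25 brightest genes the median SD was 0.13, and 4 genes differed by more than 0.5 between their highest and lowest array.

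The near-silent 5% comprised 664 genes with means from 3.11 to 3.87. AT2G12980 was the last inside at 3.8687 and AT4G14368 the first outside at 3.8688. Pseudogenes made up 273 of them (41.1%), against 7.44% of all genes. In this class 540 genes (81.3%) were in the lowest 5% on every array, the highest SD was 0.31, and no member was among the most variable 5%. Near-silent genes were shorter, with a median length of 1388.5 bp against 2105 bp over all genes. More than 1 annotated transcript was found for 12.8%, against 37.9% of all genes. These lengths and shares include the pseudogenes and were not computed without them. Of the near-silent genes, 27.7% had a measured neighbour on the chromosome that was also near-silent. In the bright class, which includes 31 plastid genes, 14.6% had a bright neighbour. The share for genes picked at random was not computed, and nothing about clustering is read from these shares. Probe sets of the kinds that can match several transcripts, marked _s or _x, were 8.89% of this class and 2.07% of all.

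Of the 20 dimmest genes, which lay between 3.11 and 3.23, 16 were annotated pseudogenes. AT3G42930, a pseudogene, had the lowest level at 3.20, 3.01 and 3.13, and AT3G42250, another pseudogene, gave 3.18, 3.05 and 3.13. The protein-coding loci of this set were AT3G27980, AT1G56530, AT3G19780 and AT3G46390, at 3.17 to 3.21. Replicates of these 20 genes differed little, with SDs of 0.02 to 0.10. Not every pseudogene was dim. AT1G35612 gave 9.25, 9.41 and 9.26, above the median gene on each array, and AT3G48650, a transcribed pseudogene, gave 9.88, 8.01 and 8.75 and was highest on replicate 1.

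Markers of other organs were low, although few were measured. In whole leaves, few cells of a type and little RNA per cell cannot be told apart. Of 59 listed markers of root, seed, pollen and tapetum, flower and shoot meristem, 7 were measured, and all 7 lay below the median gene. The other listed markers had no probe set matched to them here. M17, a late embryogenesis gene of maturing seeds, was the one near-silent marker, at 3.41, 3.31 and 3.32. AT3G15670, also on the seed list, had a mean of 4.74. PYK10, a root beta-glucosidase, lay at 5.33, and EXPA7 and EXPA18, the root hair expansins, at 6.33 and 6.23. CLV3, the peptide signal of the shoot meristem, lay at 5.32. AT5G07230, of the pollen and tapetum list, gave 5.78, 6.06 and 7.02, and its replicate 3 value put it among the most variable 5%. No flower or vascular marker of the lists was analysed here. Of the markers of leaf cell types, TRY, a regulator of trichome patterning, and FMA, of guard cell differentiation, gave 7.03 and 7.15, close to the median gene.

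**Figure D2:**
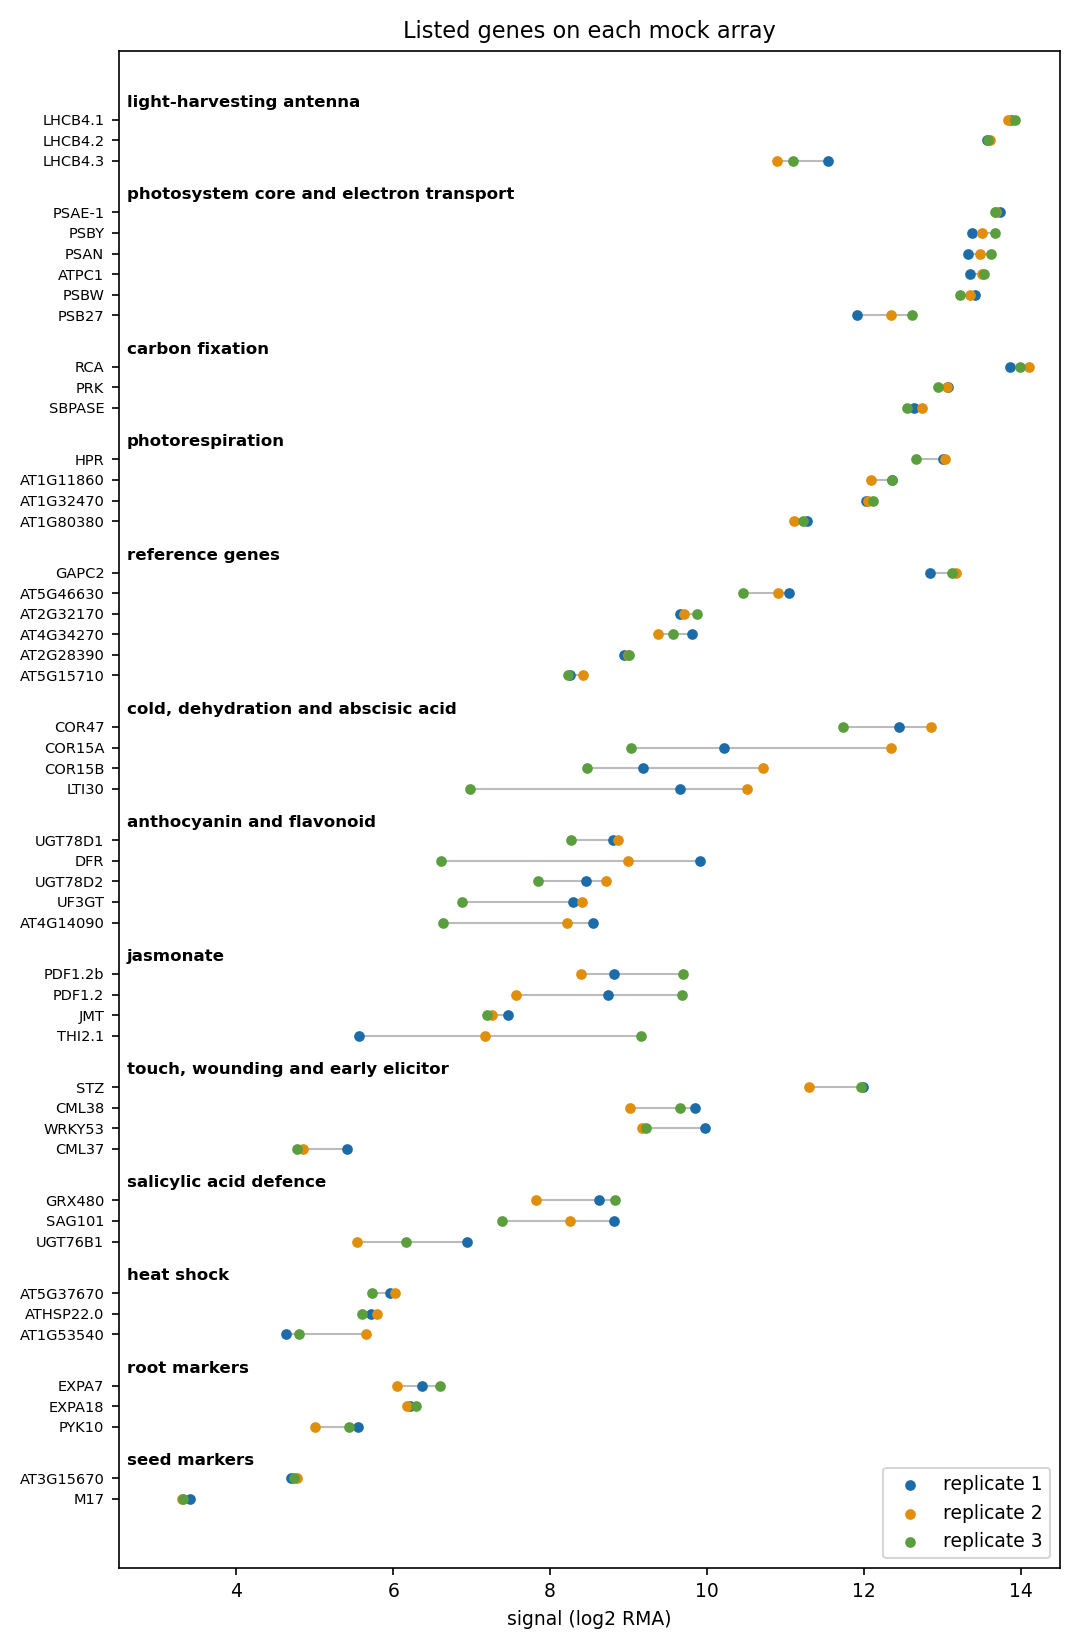
Log2 RMA signal (horizontal axis) of the measured members of the pathway and marker lists with more than 1 measured member, except the glucosinolate list. There is 1 point per mock array, with a grey line from the lowest to the highest array. Photosynthesis genes are bright and most have points close together, and seed markers are dim. The longest lines are those of genes on the cold, anthocyanin and jasmonate lists.

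The SD over the 3 arrays had a median of 0.17, a factor of 1.12 in signal, and 59.6% of genes were under 0.2. With 3 values an SD is imprecise, since its 95% interval runs from 0.521 to 6.28 times the estimate. Spread depended on level. The median SD was 0.07 for genes between 3 and 4, 0.10 between 4 and 5, and 0.22 between 7 and 8, and stayed at 0.21 to 0.25 from 8 up to 13. From 13 to 14 it was 0.14. An SD of at least 0.5 was found for 840 genes (6.32%) and of at least 1 for 113 (0.851%). Without replicate 2, where the SD is of 2 values, the first count was 1277.

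Among genes above the median level, the 10 steadiest had SDs of 0.0041 to 0.0084 at means of 7.25 to 9.82, and all 10 carry only a locus name. AT4G13780 gave 9.82, 9.82 and 9.81, and AT1G61670 gave 9.14, 9.14 and 9.13. An order among genes this steady cannot be read from 3 arrays. Common reference genes had a median SD of 0.15 over 6 measured members. AT2G28390 was the steadiest of these, at 8.94, 8.998 and 9.01, whereas AT5G46630 gave 11.05, 10.91 and 10.46 (SD 0.31), lowest on replicate 3.

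**Figure D3:**
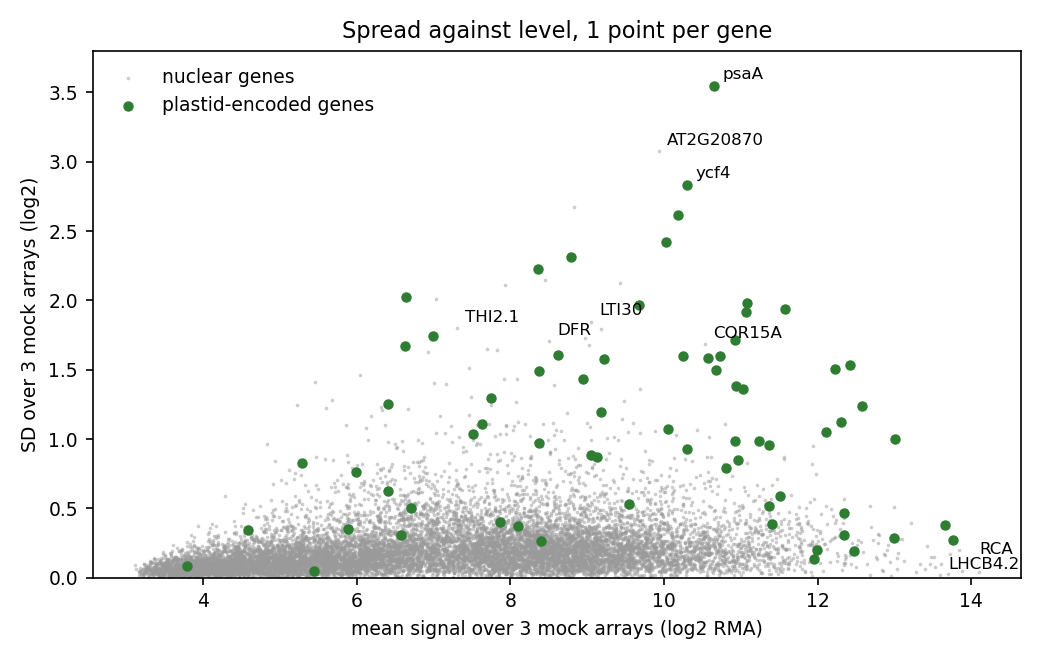
SD over the 3 mock arrays (vertical axis, log2 units) against mean log2 RMA signal (horizontal axis), 1 point per gene, with plastid-encoded genes in green. Most nuclear genes form a band under 0.5, most plastid genes lie above it, and psaA has the largest SD at 3.55.

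The most variable 5% were 664 genes with an SD of 0.544 or more. AT1G73600 was the last inside at 0.54411 and AT1G76360 the first outside at 0.54403. Of the 69 plastid genes 49 were in this class, and 615 members were nuclear. Only 3 were pseudogenes (0.452%, against 7.44% of all genes), and 51 were also among the brightest 5%. Of the 615 nuclear members, 30 were in the brightest 5%, where 4.79% of all nuclear genes were. No link between brightness and spread is read from this count.

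Plastid genes took 13 of the 25 largest SDs, and all 13 were lowest on replicate 1. The gene psaA, for a reaction centre protein of photosystem I, had the largest SD of all genes (3.55), at 6.55, 12.63 and 12.76. The next plastid genes were ycf4, for an assembly factor of photosystem I, at 7.03, 11.80 and 12.06, and psbD, for the D2 protein of photosystem II, at 7.16, 11.65 and 11.73. For each of these genes replicates 2 and 3 lay within 0.3 units of each other while replicate 1 was more than 4 units lower.

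Over all 69 plastid genes the median signal was 8.44, 11.10 and 11.21. A total of 67 were lowest on replicate 1, and the median difference between replicate 1 and the mean of the others was -1.78, with a range from -6.14 to 0.035. Replicates 2 and 3 differed by a median of 0.168 and at most 0.824. The 23 probe sets that the platform annotation gives mitochondrial gene symbols were shifted less, by a median of -0.29, and all 23 differences were below 0, the largest for cox2, a subunit of cytochrome oxidase, at -1.33. The median nuclear gene differed by -0.019, and 163 nuclear genes (1.23%) were lower by at least 1 unit on replicate 1, against 48 plastid genes (69.6%). RMA normalizes quantiles across arrays and 13217 of the 13286 genes are nuclear, so a nuclear median near 0 is largely set by the processing. A shift common to all nuclear signals could not be seen.

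The shift was uneven along the plastid genome. The neighbouring genes psaA and psaB, for the partner proteins of the photosystem I reaction centre, differed by -6.14 and -1.73 on replicate 1. Along the run accD, psaI, ycf4, cemA and petA, the differences were -3.84, -2.74, -4.90, -3.32 and -0.80. The large subunit of Rubisco, rbcL, gave 6.66, 9.23 and 9.24, and psbA, for the D1 protein of photosystem II, gave 9.24, 10.87 and 10.81. Little difference was seen for ndhC at 12.02, 12.19 and 11.78, psbZ at 11.83, 12.10 and 11.92, and psbI at 12.32, 12.69 and 12.40. The plastid genes with means above 11 thus included both strongly and weakly shifted ones. At the low end, ndhF gave 3.805, 3.70 and 3.87 and rps14 gave 5.40, 5.47 and 5.48.

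**Figure D4:**
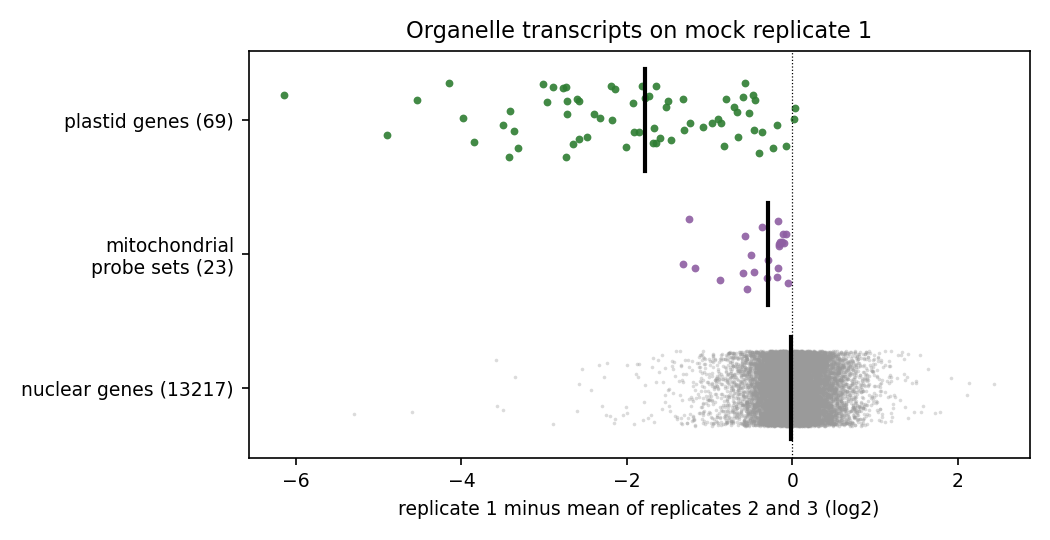
Replicate 1 minus the mean of replicates 2 and 3 (horizontal axis, log2 units) for 69 plastid genes, 23 mitochondrial probe sets and 13217 nuclear genes, 1 point each, with black bars at the medians. The plastid median is -1.78, the mitochondrial median -0.29 and the nuclear median -0.019.

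Nuclear genes also varied. For each gene the array farthest from the other 2 was recorded with its side. Of the 615 nuclear genes in the most variable class, replicate 1 was the odd array for 152 on the low side (24.7%, against 19.5% of all nuclear genes) and 95 on the high side (15.4% against 18.9%). Replicate 3 was odd for 151 on the high side (24.6% against 22.5%) and 120 on the low side (19.5% against 14.47%). Replicate 2 was odd for 58 on the high side (9.43% against 11.2%) and 39 on the low side (6.34% against 13.4%). On both sides together, replicate 1 was odd for 40.2% against 38.4%, close to the share of all nuclear genes. The shares were 15.8% against 24.6% for replicate 2 and 44.1% against 36.9% for replicate 3. The examples named for each pattern are those with the largest SDs, and they were chosen after their values were seen.

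Replicate 1 was low for AT2G20870, at 6.40, 11.41 and 11.99, the largest SD of any nuclear gene (3.08). AT5G22430 gave 5.77, 10.03 and 10.69, and RXF26 (AT1G58430) gave 4.80, 7.62 and 8.68. In these genes replicate 3 was the highest array. On the high side of replicate 1 were AT3G28510, at 7.09, 4.62 and 4.67, and SAL2, a phosphatase of the inositol monophosphatase family, at 9.13, 7.23 and 7.46. CHI (AT2G43570), a chitinase family gene, gave 8.54, 6.56 and 7.44. The values of replicates 2 and 3 lay close together for AT3G28510 and SAL2 and less so for CHI.

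Replicate 3 was high for THI2.1, a thionin of antimicrobial defence that jasmonate induces, at 5.56, 7.18 and 9.16, and for GH9B13, of the glycosyl hydrolase family that includes endoglucanases, at 6.08, 7.64 and 9.37. ATLP-1, a thaumatin-like protein, gave 6.91, 7.68 and 9.69. Replicate 1 was the lowest array for each of these 3 genes. AT2G28790 and AT3G16670 belonged to the same pattern with means of 9.18 and 8.98. On the low side of replicate 3, AT2G38240 gave 10.46, 9.46 and 7.18, and AT4G00670 gave 6.89, 6.88 and 4.35.

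**Figure D5:**
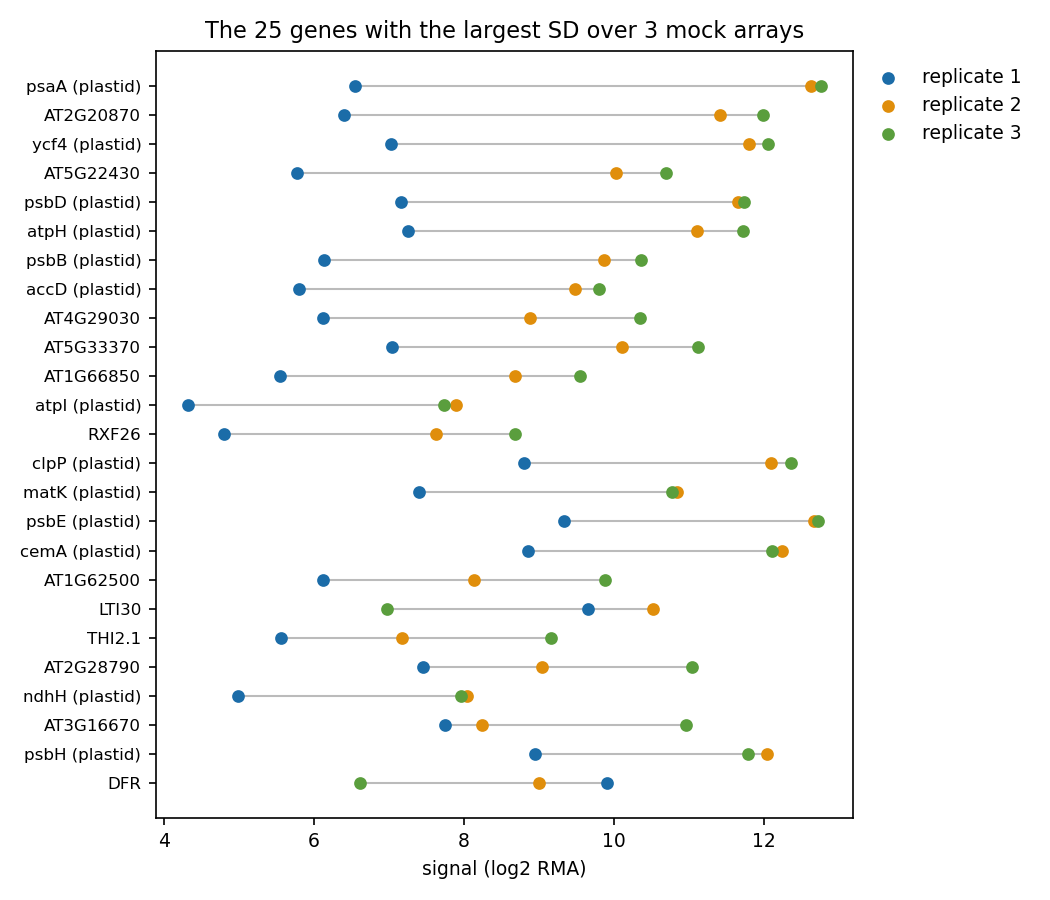
Log2 RMA signal (horizontal axis) on each mock array for the 25 genes with the largest SD, ordered by SD from psaA (3.55) to DFR (1.70), 1 point per array. Replicate 1 is the lowest array for all of them except LTI30 and DFR, which are lowest on replicate 3.

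Cold and dehydration genes had the same highest and lowest array. All 4 measured members of the list were in the most variable 5%, and all 4 were highest on replicate 2 and lowest on replicate 3. LTI30, a dehydrin that binds membranes, gave 9.66, 10.51 and 6.98. COR15A, a chloroplast protein that protects membranes during freezing, gave 10.22, 12.35 and 9.03, and its tandem neighbour COR15B gave 9.18, 10.71 and 8.47. COR15A and COR15B are close copies, and cross-hybridisation between their probe sets was not tested. COR47, another dehydrin, was bright throughout at 12.45, 12.85 and 11.74. Over all genes, 25.5% were highest on replicate 2 and 29.9% lowest on replicate 3.

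Anthocyanin genes were low on replicate 3. All 5 measured members were lowest there, as were 29.9% of all genes, and 3 were in the most variable class. DFR, dihydroflavonol reductase, the entry enzyme of the anthocyanin branch, gave 9.91, 8.998 and 6.61. UF3GT, an anthocyanin glycosyltransferase, gave 8.29, 8.41 and 6.88, and AT4G14090, a gene of the same list, gave 8.54, 8.21 and 6.63. The flavonoid glycosyltransferases UGT78D1 and UGT78D2 varied less, with SDs of 0.33 and 0.45, though these lay at percentiles 83.0 and 91.5 of all genes.

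On the jasmonate list 3 of 4 measured genes were highest on replicate 3, as were 40.5% of all genes. PDF1.2, a plant defensin, gave 8.74, 7.57 and 9.68, and PDF1.2b, a near-identical copy, gave 8.82, 8.39 and 9.70. Both were lowest on replicate 2, as were 31.4% of all genes, whereas THI2.1 was lowest on replicate 1. The probe set of PDF1.2b is marked _x, and cross-hybridisation with PDF1.2 was not tested. The PDF1.2 and PDF1.2b values may thus not be separate readings. JMT, jasmonate methyltransferase, gave 7.46, 7.26 and 7.1999 and was highest on replicate 1.

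The touch and wounding list differed in a smaller way. Its 4 measured genes were all highest on replicate 1, as were 34.0% of all genes, and none was in the most variable class. WRKY53, a transcription factor of senescence and defence, gave 9.98, 9.17 and 9.23, and STZ, a zinc finger repressor of stress responses, 11.99, 11.31 and 11.96. The calmodulin-like genes CML38 and CML37 gave 9.85, 9.02 and 9.66, and 5.41, 4.85 and 4.77. The differences between arrays were thus under 1 unit for all 4.

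Genes of the salicylic acid list spread without any salicylic acid having been sprayed. UGT76B1, a glucosyltransferase of salicylic acid and isoleucic acid, gave 6.94, 5.54 and 6.16, and SAG101, a partner of EDS1 in immunity, gave 8.82, 8.25 and 7.38. Both were in the most variable class, and both were highest on replicate 1, as were 34.0% of all genes. GRX480, a glutaredoxin that binds TGA factors, gave 8.62, 7.82 and 8.82 and lay just outside that class.

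Single or few members stood for the remaining lists. The 3 measured genes of the heat shock list were low, at 5.03 to 5.90, and all were highest on replicate 2, as were 25.5% of all genes. AT1G53540 gave 4.63, 5.65 and 4.80, while AT5G37670 gave 5.96, 6.02 and 5.73, where replicates 1 and 2 lay close together. GI, a clock component, gave 9.16, 9.08 and 8.64. AUR1, the mitotic aurora kinase, gave 7.36, 7.18 and 8.24 and was highest on replicate 3. BCAT4, an aminotransferase of glucosinolate side-chain elongation, was bright at 12.001 ± 0.26 (SD, n = 3), and AT2G31790, of the same list, lay at 9.64. No member of the sugar and nitrate list or of the phosphate, iron and sulfur list was analysed here.

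Among the 615 nuclear genes there were 39 pairs of neighbouring measured loci that were both in the class, and 12 of these pairs had the same odd array on the same side. COR15B with COR15A, AT1G62500 with AT1G62510, and AT4G12490 with AT4G12500 were such pairs, and nothing about neighbours in general is read from this count. SWEET10 and SWEET13, neighbouring sugar transporter genes, were not, as replicate 1 was low for the first and replicate 2 high for the other.

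Without replicate 1, the picture of the variable genes was different. Ranked by the difference between replicates 2 and 3, only 5 of the 25 most variable genes were shared with the ranking over all 3 arrays, and none of the 25 was plastid-encoded. Of the 664 genes in the 5% class, 367 were shared and 1 was a plastid gene. The largest differences, replicate 2 minus replicate 3, were then those of LTI30 at 3.54, COR15A at 3.32 and AT1G51090 at 2.72. They were followed by AT3G16670 at -2.72, AT4G00670 at 2.53 and DFR at 2.39. At the bright end, 21 of the 25 brightest genes were again among the 25 brightest without replicate 1, and all 16 photosynthesis and photorespiration genes were again in the brightest 5%.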

How the data were processed

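Total RNA from 3 mock-sprayed leaf samples had been hybridised to 1 ATH1 array each. The deposited values are log2 signals. Per the submitters' processing notes the authors used RMA, which corrects background, normalizes quantiles across arrays and summarises probes. The version of RMA, any filters and the build are not given in the sources used. Depth does not apply to arrays, and their number limits the precision. The values were used as deposited. Of 22810 probe sets, 64 AFFX controls were left out and read only for array quality. The platform annotation listed 14016 of the other 22746, 13513 with 1 gene and 503 with several, and 13436 matched RefSeq (TAIR10.1) by gene identifier. For 144 genes with more than 1 probe set the one with the highest mock mean was kept, which gave 13286 genes, 11751 of them named by locus. Means, SDs (n - 1) and ranks were computed with Python 3.11.15, numpy 2.4.6 and pandas 2.3.3, and the code was tested on simulated data.

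Genes named are the 25 highest and 20 lowest means, the 25 largest SDs, the 10 smallest SDs above the median level, all measured reference genes, and up to 4 members of each list (the highest and lowest means); list members, plastid genes, family members and pattern examples beyond these were chosen after their values were seen. The members and lists were chosen with earlier results of these data known. Of 356 members in 24 lists, 58 were measured, in 20 lists. Gene families were matched by RefSeq symbols and synonyms; the match for ERF/AP2 genes caught clone names and is not used. Promoter and protein sequences were not analysed here. Alternatives covered leaving out each replicate, array centring, the probe set kept, thresholds, and 32 linear units added before log2.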

Additional observations from a re-analysis of the deposited data

How the results depend on the processing

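Medians were held to the spread between replicates and counts to 1.5 times the value reported. Of 80 alternative values, 66 stayed within these limits and 14 moved further. Some settings could move little, since array medians were already close and only 144 genes had more than 1 probe set. The tally is therefore no measure of robustness. The median gene level was 7.16 without _s and _x probe sets and 7.51 over all probe sets, with or without a gene. A threshold of 13 in place of 12 left 27 bright genes, and thresholds of 4 and 6 in place of 5 gave 755 and 4327 genes under them on all arrays. The median SD ranged from 0.119 to 0.158 with each replicate left out and was 0.123 with 32 linear units added. Genes with an SD of at least 0.5 numbered 702 to 1277 with each replicate left out, with 1277 without replicate 2, and 558 with 32 units added. With a replicate left out the SD is of 2 values and not of 3. Those medians and counts are therefore not like for like with the values reported. Thresholds of 0.3 and 1 gave 2780 and 113. Of the 25 most variable genes, 5 to 21 were shared when a replicate was left out, with 5 without replicate 1. Among nuclear genes only, an alternative chosen after seeing the data, 12 were shared, since the plastid genes were then left out. The other causes were not tested. No paired analysis was possible because no comparison between groups was made. Scanner values were not used here, so signals near 3 could not be set against background.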

Other observations

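Gene families matched by name showed further differences in level. MADS box genes, transcription factors best known from flowers and embryos, were dim: the 42 measured had a median of 4.57, 7 were near-silent and 0 were in the brightest 5%. By name, AGL26 was the highest at 9.24, 9.44 and 9.44, and AGL78 the lowest at 3.46, 3.36 and 3.46. Whether each matched locus encodes a MADS box protein was not checked. AGL24, a promoter of flowering, gave 6.98, 7.14 and 7.17 and lay at the median gene. UDP-glycosyltransferases spanned 3.81 to 11.61 over 43 genes, with UGT88A1 at the top and UGT74B1, of glucosinolate synthesis, at 11.11. Of 244 cytochrome P450 genes matched by name 24 were measured, most of them of the CYP71B subfamily, with a median of 6.88. CYP71B23, at 10.44, 8.98 and 8.92, was the only one in the most variable class (4.17%, against 5.00% of all genes). Nothing about the family is read from this count. Glutathione S-transferases had a median of 6.17 over the 12 measured of 45 matched by name, and GSTU20 stood highest at 12.32, 11.69 and 11.59.

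Cell wall loosening genes (expansins and xyloglucan endotransglucosylases) leaned to replicate 3: of 28 measured, 17 were highest there and 16 lowest on replicate 1, against 40.5% and 38.7% of all genes. EXPA15 gave 7.68, 8.34 and 8.94, XTH16 gave 7.78, 8.04 and 9.15, and EXPA8 gave 8.88, 10.12 and 10.08. EXLB1 ran the other way, at 10.10, 9.85 and 8.27. Defensins and related cysteine-rich peptides had a median of 4.91 over the 13 measured of 132 matched by name. Of these 13, 9 were highest on replicate 3, among them LCR69 at 9.56, 10.62 and 11.58. The part of the differences between arrays in these counts was not tested.

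A further 8730 probe sets carried no gene in the annotation used here. Their median was 8.08, and 936 (10.7%) were as bright as the brightest 5% of genes while 168 (1.92%) were as dim as the near-silent class. The brightest was 256309_at at 14.25, 14.19 and 14.37, and the most variable was 258675_at at 6.96, 11.24 and 12.47.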
